A study of Mus musculus with 40 samples.

Results

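The comparison described here is that of male C57/Bl6 mice exposed to repeated cross fostering (RCF) with unhandled male C57/Bl6 controls. Its members were chosen by their labels as the 5 RCF and 5 control libraries of C57 males, which are 10 of the 40 libraries in the series. RCF litters were given to a different adoptive mother daily between postnatal days 1 and 4, and the control litters were left unhandled. Both groups were adults, and mRNA was sequenced from punches taken from the ventral tegmental area of the brain. The series also holds C57 females and male and female DBA mice, 8 groups of 5 libraries in all, and its design text names the RCF comparison within each strain and sex. The labels do not tie libraries to animals, litters or pools, so p-values measure only the spread between these libraries, part of which may be technical.

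The ventral tegmental area is a midbrain region whose dopamine neurons project to the striatum and the prefrontal cortex and take part in reward learning, motivation and the response to stress. Dopamine neurons are recognised by tyrosine hydroxylase, which makes the dopamine precursor, by the vesicular transporter that stores dopamine and by the membrane transporter that takes it back up. A punch of this region also holds GABA and glutamate neurons, glia and blood vessels, and its edges can reach other nuclei. Being moved between caretakers early in life is used in rodents as a model of unstable maternal care.

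The 10 libraries held from 22035425 to 24684756 counts, and their dopamine neuron content differed widely within each group. Th, the tyrosine hydroxylase gene, stood at 811, 1200.2, 306, 38.5 and 12.6 CPM (read counts scaled to library size by the TMM method) in RCF replicates 1 to 5 and at 8.34, 149, 835, 106 and 13.8 CPM in control replicates 1 to 5. Slc6a3, the dopamine transporter gene, was at 0.773 and 0.460 CPM in RCF replicates 4 and 5 and at 0.679 CPM in control replicate 1, so this defining marker of the labelled region was near 0 in 3 of the 10 libraries. The marker plot shows that the groups overlapped fully for both genes.

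Libraries that stood apart were found in both groups. Slc17a7, the vesicular glutamate transporter gene of cortical neurons, was at 1223 CPM in control replicate 1 and 503 CPM in control replicate 5, against 5.22 to 97.3 CPM in the RCF libraries and 6.21 to 16.4 CPM in the other 3 controls. Hcrt, the orexin gene of the lateral hypothalamus, was at 104.5 CPM in RCF replicate 5 and at most 3.18 CPM in any other of the 10. Tph2, the rate-limiting enzyme gene of serotonin synthesis, was at 21.7 CPM in control replicate 3 and at most 1.89 CPM in the others. Hoxb5, a hindbrain and spinal cord gene, was at 0 to 0.0455 CPM in all 10.

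Control replicate 5 also carried transcripts of the DBA strain. The 75 genes used were at least 8-fold higher in DBA mice than in C57 females and at 2 CPM or more in DBA. Over them control replicate 5 lay a median of 25.9% of the way from the C57 female to the DBA level. The other 9 libraries lay at -0.36% to 0.15%. Over 42 genes higher in C57 females by the same limits, control replicate 5 lay at 42.5% and the others at -6.24% to 28.7%. Of the 75 genes, 68 had a lower mean in RCF than in controls, and 37 did without control replicate 5. Results are therefore given with and without control replicates 1 and 5, a choice made with earlier results of these data known.

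**Figure D1:**
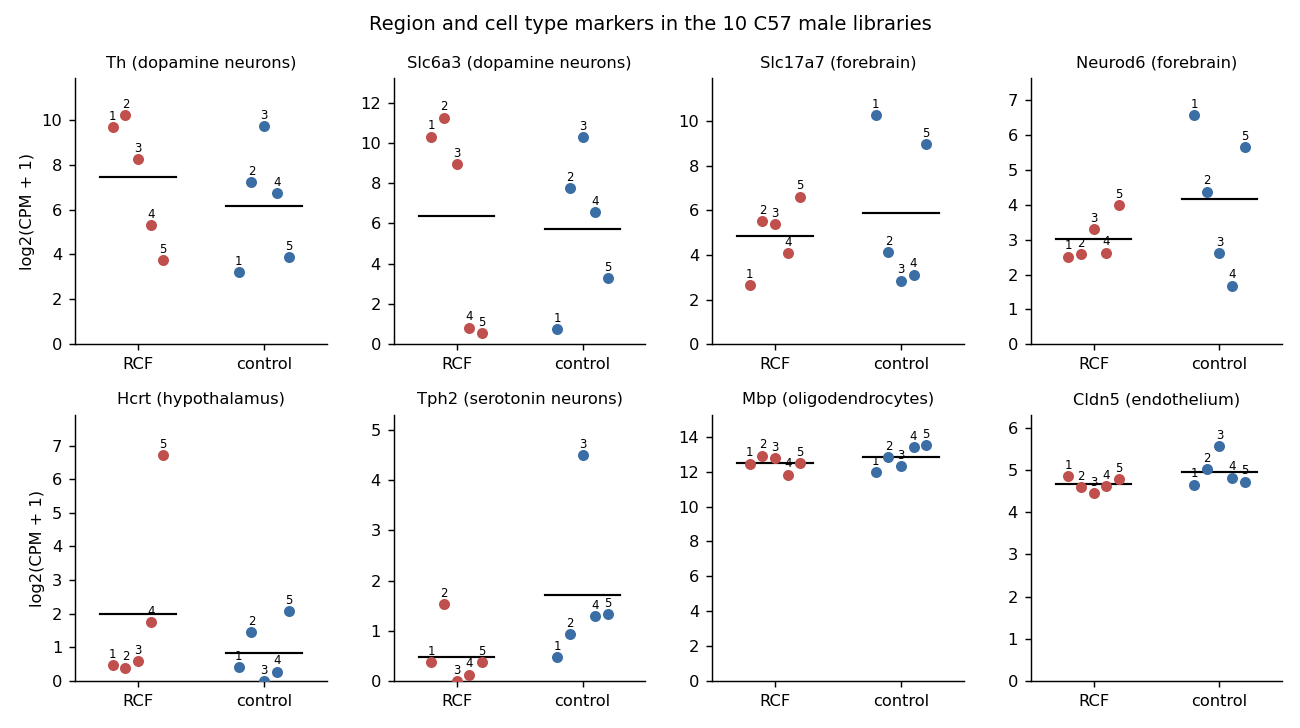
Levels of 8 marker genes as log2(CPM + 1) in the 5 RCF (red) and 5 control (blue) libraries of C57 males, with replicate numbers beside the points and group means as lines. Th and Slc6a3 span the whole range in both groups, and control replicates 1 and 5 are highest in Slc17a7 (1223 and 503 CPM) and Neurod6 (93.7 and 49.6 CPM).

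Across 18441 genes tested with edgeR's quasi-likelihood test, 1 gene rose and 1 gene fell in RCF at an adjusted p under 0.05, which is 0.0108% of the genes. The gene that fell was Zfp992, a zinc finger gene, and the one that rose was the gene model Gm29253. An unadjusted p under 0.05 was reached by 1304 genes (7.07%), of which 491 (2.66%) had a higher mean in RCF and 813 (4.41%) a lower one. In 97 genes (0.526%) all 5 RCF values lay above all 5 control values, and in 76 genes (0.412%) all lay below. The third-smallest adjusted p over the table was 0.173, for the processed pseudogene Gm9825, named here after its value was seen and highest in control replicate 5.

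Without control replicates 1 and 5 the count of genes past the threshold was 0 of 19050 by the same edgeR test, and 950 genes (4.99%) had an unadjusted p under 0.05. DESeq2 on all libraries called 7 genes and limma voom 1. Leaving out any 1 of the 10 libraries kept both Zfp992 and Gm29253 under the threshold, with adjusted p from 0.00847 to 0.0321 for Zfp992 and from 0.00874 to 0.0350 for Gm29253.

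**Figure D2:**
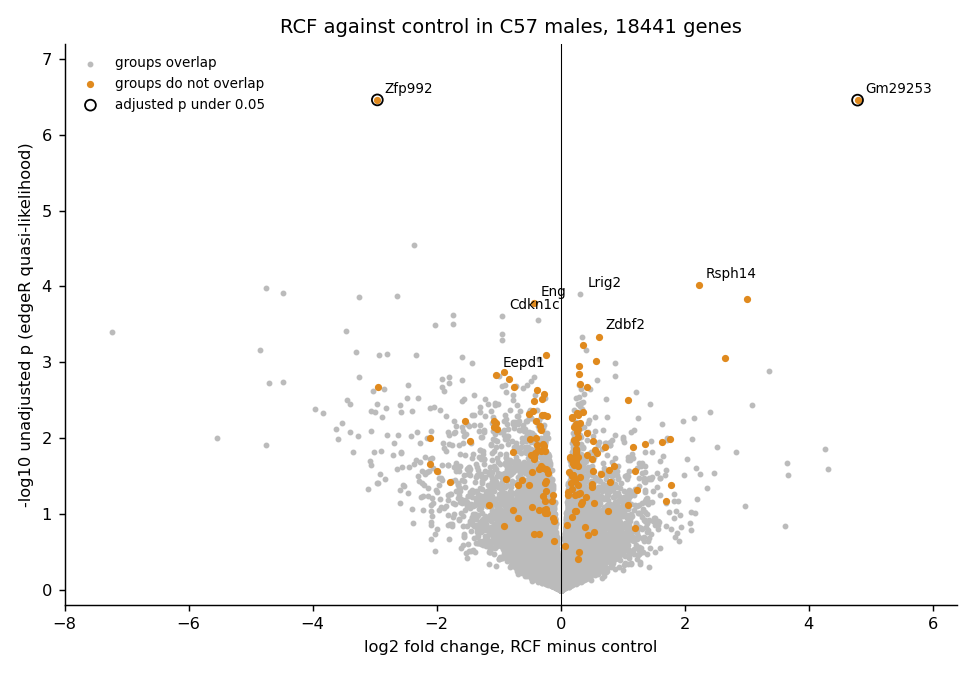
Each point is 1 of 18441 genes, with the log2 fold change of RCF minus control on the horizontal axis and -log10 of the unadjusted edgeR p on the vertical axis. Orange points are genes whose 5 RCF and 5 control values do not overlap (97 above, 76 below), and the 2 ringed points are Zfp992 and Gm29253.

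Zfp992 belongs to a family of zinc finger proteins with a KRAB repression domain, many of which silence transposable elements, and it lies in a cluster of near-identical copies at the distal end of chromosome 4. It has a close copy in Zfp991 (coding sequences of 1719 bases each, 99.5% identical, 8 mismatched positions). A read of 75 bases can tell the pair apart only where it covers a difference. The stretches below are coding bases on the plus strand of GRCm38 from GENCODE transcripts, chr4:146466443-146466562 in exon 4 of Zfp992 and chr4:147178787-147178906 in exon 7 of Zfp991. They are shown because capitals mark the 2 positions in this window at which the copies differ.
Zfp992: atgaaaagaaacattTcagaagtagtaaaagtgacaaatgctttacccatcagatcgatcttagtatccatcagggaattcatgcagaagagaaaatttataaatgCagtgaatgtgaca
Zfp991: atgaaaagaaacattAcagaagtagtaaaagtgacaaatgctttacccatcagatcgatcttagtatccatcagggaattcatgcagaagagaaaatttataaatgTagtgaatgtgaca

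Zfp992 (ENSMUSG00000070605.4) spans 146449023 to 146470292 on the plus strand of chromosome 4 in GRCm38. Its raw counts were 4, 2, 2, 1 and 2 in RCF replicates 1 to 5 and 14, 16, 15, 16 and 29 in control replicates 1 to 5. Every RCF library lay below every control, and the highest count was in control replicate 5, the library with DBA transcripts. Zfp992 fell in RCF, with means of 0.0955 ± 0.0448 CPM against 0.783 ± 0.272 CPM (SD, n = 5 in each group). By edgeR's quasi-likelihood test the log2 fold change was -2.96 (SE 0.48), with a Benjamini-Hochberg adjusted p of 0.00320. Without control replicate 5 it was -2.72, and without control replicates 1 and 5 it was -2.71 with an edgeR adjusted p of 0.173. The call of Zfp992 also ended with limma voom (adjusted p = 0.427) and in edgeR on the 10 libraries alone (adjusted p = 0.162).

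Because reads may be divided between the copies, the pair was also summed. Zfp991 alone had 13, 12, 2, 4 and 13 counts in RCF and 14, 15, 34, 22 and 6 in controls, and the groups overlapped (log2 fold change -1.02, SE 0.64, edgeR adjusted p = 0.749). The sum of Zfp991 and Zfp992 was 0.716, 0.628, 0.180, 0.227 and 0.627 CPM in RCF and 1.36, 1.34, 1.95, 1.62 and 1.53 CPM in controls. All 5 summed RCF values lay below all 5 controls, with a difference of -1.65 in mean log2(CPM + 0.1). A two-sided exact permutation test gave p = 0.00794, the smallest that 5 against 5 allows. The sum was chosen after its parts were seen. It holds Zfp992, named for its small p in these same libraries, so this p adds no separate support. Of the 4476 windows of 75 bases in the Zfp992 transcript, 34.5% also occur in other genes and 2931 do not. Of the 17 zinc finger genes listed for this cluster, 6 had enough counts to be tested, 4 with a lower and 2 with a higher mean in RCF, and Zfp992 was the one past the threshold.

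Zfp992 had a higher mean in RCF in C57 females and a lower one in DBA males, neither past the threshold. Its counts ran from 4 to 21 in C57 female RCF and from 1 to 12 in C57 female controls, and from 14 to 31 and 14 to 61 in the corresponding DBA males. The log2 fold change was 1.22 in C57 females and -0.57 in DBA males. The RCF effect in C57 males minus that in C57 females was -4.18 (SE 0.64, adjusted p = 0.00259, edgeR interaction test), and Zfp992 was the 1 gene of 18441 (0.00542%) past the threshold in that test. With limma voom the Zfp992 difference was -4.10 and missed the threshold (adjusted p = 0.117), and the 1 gene called was Gm29253 (4.75, adjusted p = 0.0290).

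**Figure D3:**
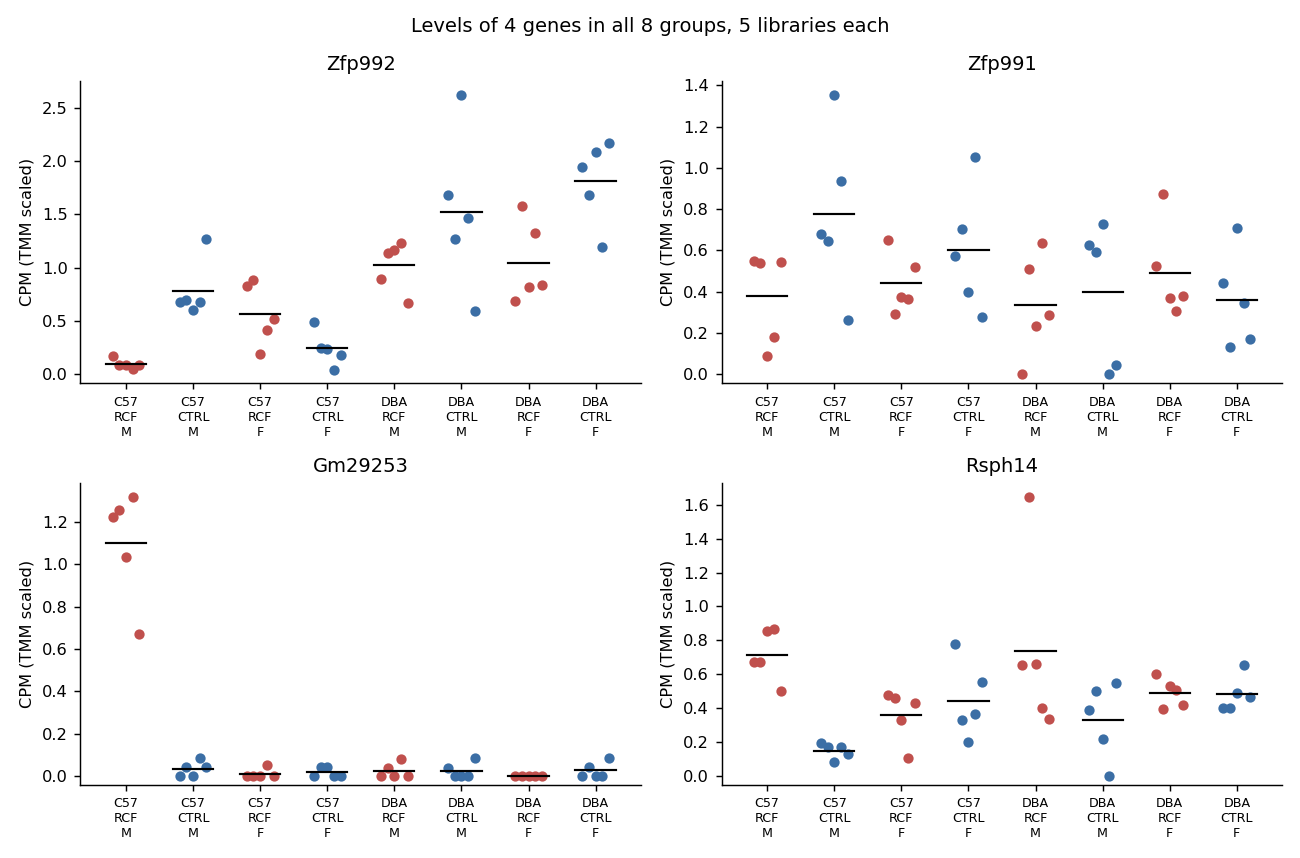
CPM of Zfp992, its copy Zfp991, Gm29253 and Rsph14 in the 8 groups, 5 libraries each (RCF red, control blue, line at the mean). Gm29253 is above 0.6 CPM in the C57 male RCF group and at or under 0.0851 CPM in every other library, while Zfp992 is lowest in C57 male RCF and higher in the DBA groups.

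Gm29253 (ENSMUSG00000099519.1) is an annotated transcript with no stated coding function. It has 22 exons from 75171731 to 75185146 on the minus strand of chromosome 1 in GRCm38 and runs through Atg9a, which encodes a membrane protein of autophagosome formation, and Abcb6, which encodes a porphyrin transporter. Of its 5231 bases, 467 (8.93%) lie outside the exons of other genes, all in exon 6. A stretch of that exon is shown because its bases belong to no other annotated exon (chr1:75180567-75180686, minus strand, GRCm38, no base in capitals).
Gm29253: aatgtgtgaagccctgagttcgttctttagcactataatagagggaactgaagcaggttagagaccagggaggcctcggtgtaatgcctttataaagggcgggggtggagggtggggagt

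Gm29253 had 29, 28, 23, 29 and 16 raw counts in RCF replicates 1 to 5 and 0, 1, 0, 2 and 1 in control replicates 1 to 5. It was present in every C57 male RCF library and nearly absent from the controls, and its counts in the 30 libraries of the other 6 groups were 0 to 2. It rose from 0.0344 ± 0.0357 to 1.10 ± 0.263 CPM (SD, n = 5 each). The edgeR log2 fold change was 4.79 (SE 0.75, adjusted p = 0.00320), a size that depends on the prior count because the controls held 4 counts in all. Without control replicates 1 and 5 it was 4.54 (edgeR adjusted p = 0.361). The call of Gm29253 also ended in edgeR with a replicate block (adjusted p = 0.457) and with no low-count filter (adjusted p = 0.148).

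The genes that share its exons showed no such difference. Atg9a was at 85.7, 86.0, 87.5, 87.1 and 87.8 CPM in RCF and at 102.9, 81.4, 78.6, 85.8 and 76.3 CPM in controls, and Abcb6 had means of 1.63 CPM in both groups. The log2 fold changes were 0.03 (SE 0.08, edgeR adjusted p = 0.944) for Atg9a and -0.0017 (SE 0.29, edgeR adjusted p = 0.9997) for Abcb6. Gm29253 averaged 1.10 CPM in RCF, under the Atg9a control SD of 10.6 CPM. A shift as large as the Gm29253 level would not show in Atg9a. Abcb6, which shares 2790 of the 75-base windows of Gm29253 against 1758 for Atg9a, varied less. Its SD was 0.563 CPM in RCF and 0.613 CPM in controls, with 187 and 190 counts in all. Whether reads moved between these genes was not tested. How the counting tool handled reads shared by overlapping genes is not given in the sources used here, and 88.2% of the 75-base windows of Gm29253 occur in Atg9a or Abcb6. Its count is uncertain for that reason.

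After Gm29253, Rsph14 had the smallest p among genes with a higher mean in RCF. It encodes a radial spoke protein of motile cilia. Its level was 0.674, 0.673, 0.855, 0.864 and 0.502 CPM in RCF and 0.194, 0.173, 0.0796, 0.170 and 0.131 CPM in controls. The groups were fully apart, at a depth of 2 to 4 counts per control library, and the log2 fold change was 2.22 (SE 0.51, edgeR adjusted p = 0.268). DESeq2 gave an adjusted p of 0.0420. Without control replicates 1 and 5 it was 2.30.

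Lrig2, a membrane protein gene of the leucine-rich repeat family, stood at 34.5, 35.7, 45.6, 40.1 and 41.8 CPM in RCF and at 34.9, 30.7, 34.2, 31.1 and 28.4 CPM in controls. Control replicate 1 lay above the lowest RCF value, and the log2 fold change was 0.31 (SE 0.07, edgeR adjusted p = 0.268). Without control replicates 1 and 5 it was 0.30. Wrb, which encodes a receptor for tail-anchored proteins at the endoplasmic reticulum, Rbm34, an RNA-binding protein gene, Arxes2, Tmem238, Zfp879 and Fam136a had log2 fold changes from 0.30 to 0.87 and edgeR adjusted p from 0.408 to 0.552. Rbm34, Tmem238 and Fam136a did not overlap between groups. Tldc2 did not overlap either, at 0.169 to 0.628 CPM in RCF and 0 to 0.0864 CPM in controls.

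Among genes of at least 1 CPM whose RCF values all lay above the controls, the 8 with the largest log2 fold change were Lrrc23, B3gnt4, AW551984, Glra3, Deup1, Gli1, Zdbf2 and Tmem238, at 0.57 to 1.24. Lrrc23 encodes a cilium protein, Deup1 acts in the making of centrioles for multiciliated cells, Glra3 is a glycine receptor subunit gene and Gli1 a transcription factor of Hedgehog signalling. Gli1 was at 13.6, 14.1, 15.0, 19.97 and 16.2 CPM in RCF and at 8.25, 13.1, 13.5, 9.32 and 5.93 CPM in controls, so that the lowest RCF value lay just above the highest control. Its log2 fold change was 0.65 (SE 0.29, edgeR adjusted p = 0.671), and 0.40 without control replicates 1 and 5. The lowest control was replicate 5 in Gli1, Glra3, AW551984, B3gnt4, Lrrc23, Deup1 and Zdbf2, the library in which DBA and forebrain transcripts were found. Taking the 50 genes of smallest p among those higher in RCF, 31 had their highest value in RCF replicate 4.

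After Zfp992, Eng had the smallest p among protein-coding genes with a lower mean in RCF. It encodes endoglin, a co-receptor for TGF-beta family ligands on endothelial cells. It was at 31.98, 28.1, 29.8, 31.0 and 35.9 CPM in RCF and at 37.2, 37.2, 50.9, 45.8 and 40.6 CPM in controls. Every RCF library was below every control, with a log2 fold change of -0.43 (SE 0.10, edgeR adjusted p = 0.276), and the value was -0.51 (edgeR adjusted p = 0.410) without control replicates 1 and 5.

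Cdkn1c, an imprinted inhibitor of cyclin-dependent kinases, was at 3.29, 3.50, 6.35, 4.05 and 7.15 CPM in RCF and at 7.71, 6.56, 12.5, 8.55 and 11.8 CPM in controls. RCF replicate 5 lay above control replicate 2, and the log2 fold change was -0.95 (SE 0.23, edgeR adjusted p = 0.352). It was -0.92 without control replicates 1 and 5. Postn, which encodes the matrix protein periostin, was at -1.74 (edgeR adjusted p = 0.373) and highest in control replicate 4, at 16.0 CPM.

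Other small p-values rested on the libraries that stood apart. Eno1b, an enolase gene, was at 6.19 CPM in control replicate 5 and 0.315 to 1.63 CPM in the other 9 libraries, and its log2 fold change of -1.74 was -0.70 without that library. Dkkl1 was at 21.5 and 8.16 CPM in control replicates 1 and 5 and at 0.273 to 1.71 CPM elsewhere, and its value of -2.80 turned to 0.52 without both. Rilpl1, whose product binds Rab proteins, went from -0.37 to -0.19. A pseudogene and an antisense model with clone names only, named for their small p, had 0 counts in all RCF libraries and 13 and 92 counts in the controls, of which control replicate 5 held 9 and 92. Taking the 50 genes of smallest p among those lower in RCF, 28 were highest in control replicate 5 and 11 in control replicate 1.

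Of the genes of at least 1 CPM that lay wholly below the controls, the 8 with the largest negative log2 fold change were Ccn4, Shmt1, Spata24, Igfbp4, Eepd1, Sypl2, Cyp11a1 and Btk. Igfbp4, which encodes a binding protein of insulin-like growth factors, was at 22.8, 13.7, 13.3, 12.6 and 21.6 CPM in RCF and at 31.8, 30.7, 36.7, 26.005 and 49.0 CPM in controls, a log2 fold change of -1.05 (SE 0.36, edgeR adjusted p = 0.637). Eepd1, a gene of the endonuclease/exonuclease/phosphatase family, was at 5.44, 5.61, 5.09, 3.55 and 5.77 CPM in RCF and at 11.4, 11.8, 8.72, 8.38 and 12.3 CPM in controls, also -1.05 (SE 0.30, edgeR adjusted p = 0.609). Neither gene rested on control replicates 1 and 5, since the values without them were -0.89 and -0.92. Btk, a tyrosine kinase gene of myeloid and B cells, Cyp11a1, which opens steroid hormone synthesis from cholesterol, Shmt1, a folate cycle enzyme gene, and Ccn4, a secreted matrix protein gene, lay between -2.10 and -0.88 with edgeR adjusted p from 0.637 to 0.768.

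**Figure D4:**
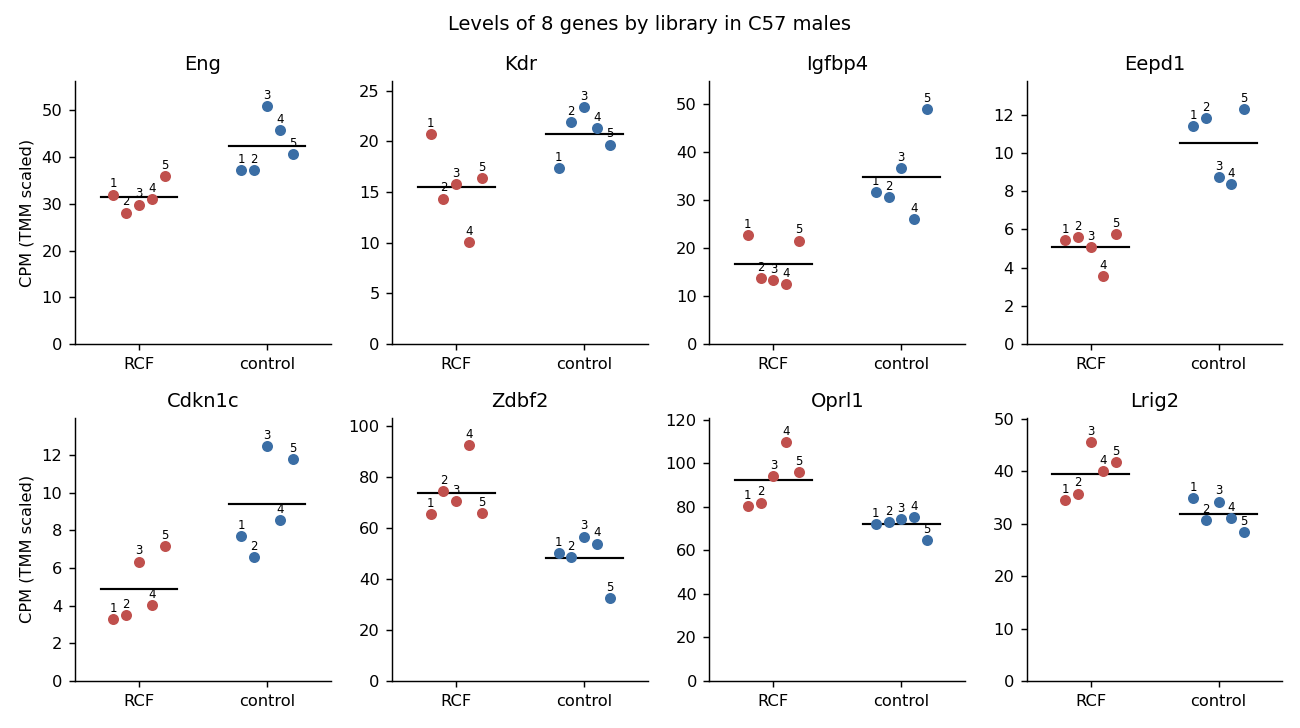
CPM of 8 genes in each C57 male library (RCF red, control blue, replicate numbers beside the points, line at the mean). Eng, Igfbp4 and Eepd1 lie wholly below the controls and Zdbf2 and Oprl1 wholly above, while Kdr, Cdkn1c and Lrig2 overlap.

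Genes of dopamine synthesis, storage and reuptake had higher means in RCF without passing the test. Of 10 tested, 8 had a log2 fold change above 0 and 2 below, with a median of 1.02 against -0.015 over all genes, and 0 passed at an unadjusted p under 0.05. Slc18a2, the vesicular monoamine transporter gene, was at 471, 992, 205, 23.2 and 19.6 CPM in RCF and 9.70, 117, 484, 63.8 and 3.40 CPM in controls. RCF replicates 1 to 3 and control replicate 3 were the highest, and the groups overlapped throughout. The log2 fold changes were 1.33 (SE 1.31) for Slc18a2, 1.18 (SE 1.2045) for Ddc, the enzyme gene that makes dopamine from its precursor, and 0.27 (SE 0.16) for Maoa, which breaks monoamines down. In a bulk sample fewer dopamine neurons and less RNA in each cannot be told apart.

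The list median was 0.36 without control replicates 1 and 5, 0.27 without RCF replicate 2 and 2.50 without control replicate 3. For single genes the range over fits that left out 1 library was wide, 0.39 to 2.77 for Th and 0.49 to 3.39 for Slc6a3. Drd2, the D2 dopamine receptor gene, was at 0.995 (SE 0.80) and ranged from 0.41 to 1.85. Among 9 transcription factor genes of dopamine neurons, 8 had a log2 fold change above 0, with a median of 0.42 that became -0.092 without control replicates 1 and 5. Nr4a2, which maintains the dopamine identity of these cells, had 0.37 (SE 0.56), and Pitx3 and Lmx1a, which act in their development, had 1.109 (SE 1.25) and 0.57 (SE 0.62).

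The lowest list median was that of forebrain glutamate neuron genes, and it rested on control replicates 1 and 5. Of 16 tested, 15 had a lower mean in RCF (53.3% of all genes) and 10 had an unadjusted p under 0.05 (4.41% of all genes), with a median of -1.75. Without control replicate 1 alone the median was -1.04, with 0 at an unadjusted p under 0.05 by edgeR. Mef2c, a neuronal transcription factor gene, was at 19.9, 27.4, 34.8, 16.0 and 61.2 CPM in RCF and at 562, 23.0, 25.0, 18.3 and 264 CPM in controls. The 2 high values were the 2 control libraries with high Slc17a7, and without them 13 of the 16 genes had a higher mean in RCF, with a median of 0.51 and 0 at an unadjusted p under 0.05. The log2 fold change of Mef2c went from -2.48 to 0.53. The summed level of the 16 genes ran from 719.7 to 1275 CPM in RCF and from 546 to 6619 CPM in controls.

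Activity-regulated genes followed the same libraries. Of 17 immediate early genes, 6 had a higher and 11 a lower mean in RCF (median -0.24), and without control replicates 1 and 5 the split was 15 and 2 (median 0.24, 4 at an unadjusted p under 0.05, against 4.99% of all genes). Without control replicate 1 alone it was 11 and 6 (median 0.047). The RCF libraries also differed in mean log2 CPM over the list. RCF replicates 4 and 5 were at 3.88 and 4.16, RCF replicates 1 to 3 at 3.03 to 3.51 and control replicates 2 to 4 at 2.93 to 3.29. Egr3 was at 99.7 and 42.0 CPM in control replicates 1 and 5 and at 1.39 to 10.6 CPM in the other 8 libraries, with a log2 fold change of -2.57 that became 1.02. Fos, the classic marker of recent neuronal activity, was at 15.8, 11.9, 19.3, 33.8 and 29.4 CPM in RCF and at 22.2, 15.5, 9.91, 17.1 and 4.93 CPM in controls, with values of 0.66 and 0.63 in the fits with and without them. Neither passed the threshold in any fit run.

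GABA receptor subunits were split 7 higher to 9 lower (median -0.04). Without control replicates 1 and 5 the split was 15 to 1 (median 0.27, against 0.0023 over all genes). Without control replicate 1 alone the split was 13 to 3 (median 0.11). In mean log2 CPM over the list, RCF replicates 1 and 2 (5.97 and 5.96) lay within the range of control replicates 2 to 4 (5.68 to 6.17). RCF replicates 3 to 5 lay above it (6.38 to 6.53). The 16 genes are not 16 separate observations. Gabrq, the theta subunit gene, was at 44.1, 29.6, 59.1, 106 and 68.2 CPM in RCF and at 40.6, 32.3, 31.9, 35.5 and 13.5 CPM in controls, a log2 fold change of 0.997 (SE 0.37, edgeR adjusted p = 0.637). RCF replicate 2 lay within the control range. Gabre, the epsilon subunit gene, had 1.16 (SE 0.46). They were the 2 members with an unadjusted p under 0.05, both higher in RCF (2.66% of all genes). Their values without control replicates 1 and 5 were 0.88 and 1.14.

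**Figure D5:**
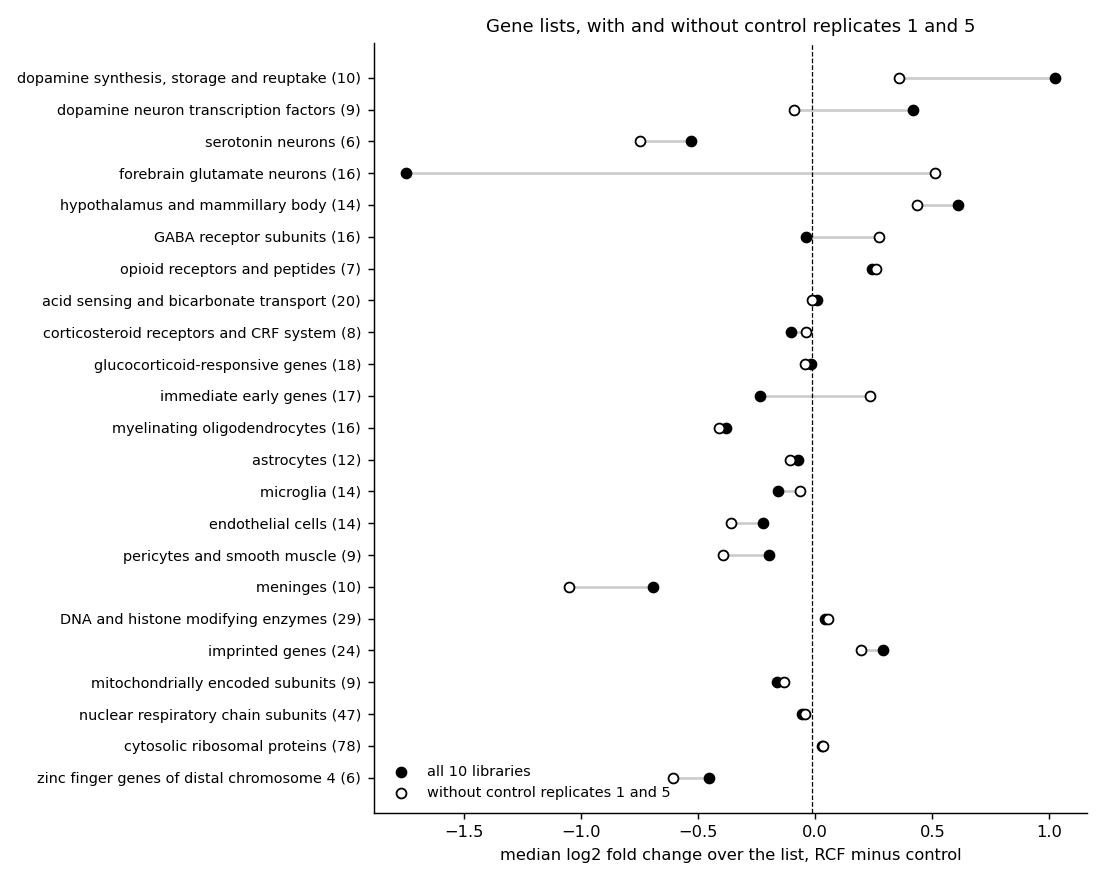
Median log2 fold change (RCF minus control) of 23 gene lists, with the number of genes tested in brackets, from all 10 libraries (filled) and without control replicates 1 and 5 (open). The dashed line is the median of all genes, -0.015, and the forebrain list moves from -1.75 to 0.51 while the oligodendrocyte, endothelial and imprinted lists keep their side.

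Blood vessel genes had lower means in RCF, and more so without control replicates 1 and 5. Of 14 endothelial genes, 13 were lower (median -0.22, against 53.3% of all genes lower), with 3 at an unadjusted p under 0.05 (4.41% of all genes). Without those 2 libraries all 14 were lower (median -0.36), with 9 at an unadjusted p under 0.05 (4.99% of all genes in either direction). In mean log2 CPM over the list, those 2 were the lowest controls (4.60 and 4.63, against 4.76 to 5.07). The wider difference without them is therefore not separate support. RCF replicate 1 (4.82) lay above control replicates 1, 2 and 5. Kdr, the main VEGF receptor gene, was at 20.7, 14.4, 15.8, 10.1 and 16.3 CPM in RCF and at 17.4, 21.9, 23.4, 21.3 and 19.7 CPM in controls. Its log2 fold change was -0.42 (SE 0.14, edgeR adjusted p = 0.637), with RCF replicate 1 above control replicates 1 and 5. Cldn5, the tight junction gene of the blood-brain barrier, was at -0.34 and highest in control replicate 3, at 46.4 CPM. Without control replicate 3 the endothelial median was -0.14 with 12 of 14 genes lower. With the markers as covariates it was -0.28, with 7 genes at an unadjusted p under 0.05 (5.71% of all genes).

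Pericyte and meningeal genes lay on the same side. Of 9 pericyte and smooth muscle genes, 7 were lower (median -0.20), among them Rgs5 at -0.33 (SE 0.15) and Pdgfrb, the platelet-derived growth factor receptor gene of pericytes, at -0.23 (SE 0.12). All 10 meningeal genes were lower (median -0.69, against 53.3% of all genes lower). The 1 at an unadjusted p under 0.05 (4.41% of all genes) was Fmod, a collagen-binding proteoglycan gene. Fmod was at 10.7, 4.53, 3.96, 5.09 and 5.601 CPM in RCF and at 2.52, 4.19, 30.05, 4.26 and 36.2 CPM in controls, so that 2 control libraries carried the difference. Without control replicate 3 the meningeal median was -0.16 and the pericyte median 0.02. The summed meningeal level ran from 43.8 to 148 CPM in RCF and from 29.5 to 288 CPM in controls. The part of meningeal tissue in the vessel genes' values was not tested.

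Among glial genes, the myelinating oligodendrocyte and microglial lists had lower means in RCF without passing the test. All 16 myelinating oligodendrocyte genes had a lower mean in RCF (median -0.38), with and without control replicates 1 and 5, and 0 reached an unadjusted p under 0.05. Ugt8a, a myelin lipid enzyme gene, was at 94.5, 154, 132, 69.6 and 109 CPM in RCF and at 86.0, 154, 121, 199 and 208 CPM in controls. Control replicates 4 and 5 were high and RCF replicate 4 low, and the other libraries lay in 1 range. The list median was -0.22 when either control replicate 4 or control replicate 5 was left out. Genes of 1 cell type vary together, so 16 genes in 1 direction are not 16 separate observations.

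Of 14 microglial genes, 13 were lower (median -0.16, against 53.3% of all genes lower). Without control replicates 1 and 5, 11 were lower and the median was -0.065. Aif1, which encodes the microglial protein Iba1, was at 2.74, 2.02, 1.31, 2.18 and 2.01 CPM in RCF and at 2.33, 3.63, 3.66, 3.66 and 2.57 CPM in controls. RCF replicate 1 lay above control replicates 1 and 5, and the log2 fold change was -0.63 (SE 0.23, edgeR adjusted p = 0.637). Siglech, a microglial lectin gene, was at -0.25 (SE 0.15). Astrocyte genes were divided, with 7 of 12 lower (median -0.072), and 10 of 12 without control replicates 1 and 5 (median -0.11). S100b, a calcium-binding protein gene, was at -0.56 (SE 0.22) and Sox9 at -0.19 (SE 0.10) with all libraries.

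Serotonin and hypothalamic genes followed single libraries. All 6 tested serotonin neuron genes had a lower mean in RCF (median -0.53), but 3 of 6 did without control replicate 3 (median -0.13). Tph2 had a log2 fold change of -3.34 that became -1.07 without control replicate 3. Htr1a, a serotonin receptor gene that other neurons also express, was at -0.62 (SE 0.33). Of 14 hypothalamic and mammillary genes, 11 had a higher mean in RCF (median 0.61), and 8 did without RCF replicate 5 (median 0.13). Hcrt went from 4.31 to -0.31 without RCF replicate 5. Cartpt, a feeding-related peptide gene, was at 124 CPM in control replicate 4 and at most 17.8 CPM elsewhere, and its value of -1.86 became 0.92 without that library.

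Imprinted genes, which are expressed from 1 parental copy and of which several act in growth and maternal behaviour, had higher means in RCF on balance. Of 24 tested, 18 were higher and 6 lower (median 0.29, against 46.7% of all genes higher), with 6 higher and 1 lower at an unadjusted p under 0.05 (2.66% and 4.41% of all genes). Zdbf2, expressed from the paternal copy, was at 65.4, 74.7, 70.6, 92.6 and 66.0 CPM in RCF and at 50.1, 48.4, 56.6, 53.9 and 32.5 CPM in controls. Every RCF library was above every control, with a log2 fold change of 0.61 (SE 0.16, edgeR adjusted p = 0.408). The value was 0.48 without control replicates 1 and 5, where 20 of the 24 genes were higher (median 0.20) and 3 had an unadjusted p under 0.05 (4.99% of all genes). Igf2, a growth factor gene counted in both the imprinted and the meningeal list, was at -0.97 (SE 0.50).

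Genes of energy metabolism and translation shifted little. Of 47 nuclear-encoded respiratory chain genes, 44 had a lower mean in RCF, with a median of -0.056 against -0.015 over all genes. Without control replicate 5 it was 31 of 47, with a median of -0.020. Cycs, the cytochrome c gene, was at 62.9, 57.6, 65.4, 58.8 and 60.9 CPM in RCF and at 67.3, 65.7, 68.0, 74.7 and 86.5 CPM in controls, with groups that did not overlap, a log2 fold change of -0.24 and an edgeR adjusted p of 0.698. Ndufa1, a complex I subunit gene, was at -0.21. Of 9 mitochondrially encoded genes 8 were lower (median -0.16, and -0.092 without control replicate 5), with mt-Cytb at -0.18 and mt-Nd4 at -0.16. Among 78 cytosolic ribosomal protein genes 55 were higher (median 0.03), but 32 without control replicate 1 (median -0.028) and 69 without control replicate 5 (median 0.079). Rpl3 and Rps15a were both at 0.22 with all libraries.

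Of the stress hormone genes, 0 reached an unadjusted p under 0.05 by edgeR with all libraries. Several estimates had wide standard errors, so differences of moderate size could go unseen. Nr3c1, the glucocorticoid receptor gene, was at 73.8, 71.0, 93.4, 94.0 and 88.1 CPM in RCF and at 112, 87.1, 63.6, 97.6 and 118 CPM in controls, and the ranges overlapped (log2 fold change -0.19, SE 0.15, and 0.02 without control replicates 1 and 5). Fkbp5, the receptor's co-chaperone and target, was at 0.09 (SE 0.14) and Crhr1, the main receptor of corticotropin-releasing factor, at -0.09 (SE 0.29). Crhbp, which encodes the binding protein of that peptide, was at -0.45 (SE 0.42). The 8 corticosteroid and CRF genes had 3 higher and 5 lower means (median -0.10), and 18 glucocorticoid-responsive genes were split 9 to 9 (median -0.018), with Pdk4 at -0.36 (SE 0.21) and Zbtb16 at -0.52 (SE 0.34).

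Acid-sensing and bicarbonate transport genes were evenly divided. Of 20 tested, 10 were higher and 10 lower (median 0.0056), with Asic1, the main acid-sensing ion channel gene of neurons, at 103, 91.8, 107, 125 and 108 CPM in RCF and at 108, 92.8, 93.6, 102 and 87.8 CPM in controls. The ranges overlapped and the log2 fold change was 0.14 (SE 0.14). Car2, a carbonic anhydrase gene that oligodendrocytes also express, was at -0.44 (SE 0.26), and Asic4 was at -0.76 (SE 0.53).

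Of 7 opioid system genes 4 were higher and 3 lower (median 0.24), and all 7 were higher without control replicates 1 and 5 (median 0.26). In mean log2 CPM over the list, RCF replicates 1 and 2 (3.68 and 3.54) lay within the range of control replicates 2 to 4 (3.52 to 3.70). Oprl1, the nociceptin receptor gene, was at 80.2, 81.9, 94.1, 109.75 and 95.9 CPM in RCF and at 72.1, 72.9, 74.5, 75.3 and 64.9 CPM in controls. All 5 RCF libraries lay above all 5 controls (log2 fold change 0.36, SE 0.12, edgeR adjusted p = 0.637, and 0.31 without control replicates 1 and 5). Pnoc, which encodes the precursor of its ligand nociceptin, was at 20.1, 15.5, 29.3, 43.2 and 40.4 CPM in RCF and at 24.0, 8.98, 20.9, 13.5 and 16.3 CPM in controls, with overlapping groups (0.83, SE 0.38, edgeR adjusted p = 0.692). Oprm1, the mu opioid receptor gene, was at 0.24 (SE 0.43), and Bdnf, a neurotrophin gene, at 0.13 (SE 0.19). Histone and DNA modifying enzymes had 20 of 29 genes higher (median 0.043), with Hdac11 at 0.24 (SE 0.13) and Hdac3 at 0.13 (SE 0.08).

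C57 females and DBA males have control libraries of their own, and within them 1 gene (0.00542%) and 3 genes (0.0163%) passed the threshold for RCF. Eng was at -0.024 in C57 females and 0.13 in DBA males, Zdbf2 at -0.042 and -0.23, and Oprl1 at -0.22 and 0.059. Cdkn1c was at 0.61 in C57 females, and the difference of C57 males minus C57 females was -1.56 (SE 0.33, edgeR adjusted p = 0.148). For Gm29253 that difference was 5.39 (SE 1.85, edgeR adjusted p = 0.190), and for Eng -0.41 (SE 0.14, edgeR adjusted p = 0.199). Against DBA males 0 genes passed the edgeR interaction test, with 1500 genes (8.13%) at an unadjusted p under 0.05 and 3 calls by DESeq2. In the test against females 2771 genes (15.0%) had an unadjusted p under 0.05, and DESeq2 called 128.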

How the data were processed

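The authors deposited a table of read counts for each gene and library, whole numbers that had not been normalized. Per the labels' protocols, RNA from frozen punches was made into stranded mRNA libraries and read as single reads of 75 bases. Per the submitters' processing notes, the reads passed through bcl2fastq 2.20 and cutadapt 1.11, with FastQC as the quality check, and the builds named are GRCm38 and mm10. Neither aligner nor counter, strand setting or annotation version is stated (not given in the sources used here).

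Counts covered 55471 genes. GENCODE vM21 gave symbols to 54487 genes by full identifier and to 657 more once the version suffix was dropped, leaving 327 unmatched. All 40 libraries entered 1 edgeR 4.0.16 model (robust quasi-likelihood F test, R 4.3.3) with a mean per group, TMM normalization, filterByExpr (18441 genes) and 32 residual degrees of freedom, so the groups shared their estimate of the spread. P-values were adjusted by Benjamini-Hochberg within a comparison over all genes tested, with a threshold of 0.05, and adjusted p-values are edgeR's except where DESeq2 or limma is named. Standard errors were derived from the F statistic. CPM were scaled by TMM.

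Named genes were those past the threshold, the 10 smallest p in each direction, the 8 largest non-overlapping differences in each direction among genes of at least 1 CPM, 13 genes always given, and the 2 smallest p of each of 23 lists described. Symbols of the form Gm plus digits or ending in Rik were left out of the smallest-p and non-overlapping sets, and 2 genes that the rule names are not reported here. In the other 16 lists 0 of 166 genes tested passed the edgeR threshold, and 4 had an unadjusted p under 0.05 (7.07% of all genes). The members, lists and alternatives were chosen with earlier results of these data known.

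Alternatives were DESeq2 1.42.0 and its size factors, limma voom 3.58.1, other low-count filters, the 10 libraries alone, a replicate block, marker covariates and leaving out libraries. On simulated counts of 18152 genes for this comparison, the edgeR test recovered 29 of 67 genes changed 1.5-fold, 42 of 67 changed 2-fold and 58 of 65 changed 4-fold, with 5 false calls. Differences in tissue content were not simulated.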

Additional observations from a re-analysis of the deposited data

Results flagged for a closer look

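The RCF effect on Zfp992 differed between the sexes of the C57 strain. The effect in males minus that in females was -4.18 (log2, edgeR interaction test). With limma voom the difference missed the threshold (adjusted p = 0.117).

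Single libraries lay apart from the other 4 of their group in 8 of 172 groups of named genes (4.65%, Dixon's test on log2 CPM), and chance flags about 1 in 20 groups. Control replicate 5 accounted for 5 of them. It was the highest control for Zfp992 at 1.26 CPM and for an antisense gene model on chromosome 17 at 4.01 CPM, where the other controls had no counts. It was the lowest control for Zdbf2 at 32.5 CPM, B3gnt4 at 0.0436 CPM and Gabrq at 13.5 CPM. RCF replicate 4 was the lowest of its group for Eepd1 at 3.55 CPM and for Ppp1r14a, a myelinating oligodendrocyte gene, at 19.3 CPM. RCF replicate 5 was the lowest for mt-Nd4 at 3250 CPM.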

How the results depend on the processing

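The 2 calls in C57 males became 7 with DESeq2, 1 with limma voom, 1 with no low-count filter, 1 with the 10 libraries alone, and 0 with the stricter filter, under which neither gene was tested. The call against females was 128 with DESeq2, 0 with the stricter filter and 2 with marker covariates, and that against DBA males, 0, was 3 with DESeq2 and 1 with limma voom. Leaving out 1 library gave 2 to 5 calls (5 without control replicate 2), 1 to 3 against females (3 without control replicate 1, 2 without RCF replicate 2), 0 to 1 against DBA males (1 without RCF replicate 2) and 244 to 498 non-overlapping genes, against 173. Leaving out control replicates 1 and 5, added after seeing the data, gave 0, 4 and 0 calls and 887 non-overlapping genes, since 5 against 3 values separate more easily. Zfp992 was not called by limma voom (adjusted p = 0.427) or with the 10 libraries alone (0.162), nor Gm29253 with no filter (0.148).

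Without control replicates 1 and 5 the sign turned for Dkkl1 (0.52), Nr4a2 (-0.092), Nr3c1 (0.0208), Mef2c (0.53), Zbtb16 (0.39) and Egr3 (1.02). With marker covariates it turned for Slc6a3 (-1.04), Pitx3 (-0.084) and Zbtb16 (0.0593). These covariates were the mean levels of Th, Ddc, Slc18a2 and Slc6a3 and of the forebrain glutamate neuron genes. Slc6a3 is part of its own covariate, so its value in that fit cannot show an RCF effect. Leaving out 1 library, the values ran from -0.053 to 0.23 for Bdnf and from -0.18 to 0.0137 for Crhr1 (sign turned without RCF replicate 4), from -0.014 to 0.20 for Fkbp5 (control replicate 3), from -0.31 to 5.24 for Hcrt (RCF replicate 5) and from -2.43 to 0.92 for Cartpt (control replicate 4). The cause was not tested. In all, 854 of 859 leave-one-out values and 743 of 753 other values of 86 named genes kept their sign.

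Same-numbered libraries of the groups did not deviate together over all genes (correlations from -0.27 to 0.13). Since punch content differed widely, these correlations cannot show whether the numbers pair animals, litters or batches, which the labels do not say. With a replicate block 2 genes were called in C57 males, 2 against females and 1 against DBA males, Gm29253 was not called (edgeR adjusted p = 0.457), and Slc6a3 was at -0.48. At 1 to 4 counts per library, as for Zfp992 in RCF and Rsph14 in controls, depth limits the size of a fold change.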
